A study of Mus musculus with 8 samples.

Results

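Transcripts of 10 genes for cell surface proteins, 8 tetraspanins (Tspan1, Tspan8, Tspan13, Cd9, Cd63, Cd81, Cd82 and Cd151) and the prominins Prom1 and Prom2, were compared between 4T1-Sca1+ and 4T1-Sca1- cells. They were matched by symbol to Ensembl identifiers, and all 10 were among the 16341 genes in the count table. The genes were chosen with results of this same comparison known, and Tspan1 and Prom2 were also among the genes that the study picked from these libraries for its SCA1 signature. Their values are therefore a description, and no test of the 10 genes is used as support. 4T1 is a mouse mammary carcinoma line, and SCA1 (encoded by Ly6a) is the surface protein by which its cells were separated on magnetic columns. Each group had 4 RNA-Seq libraries, labelled as a CD45-negative sort with or without Sca1, and neither group carried another allele or treatment. The source label and the study give the parental line as origin, whereas the protocol speaks of stained tumor. Nothing says that the libraries came from separate cultures or sorts, so the errors given here may cover technical spread only, and a magnetic fraction is an enrichment and not a pure population.

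Tetraspanins are small proteins that cross the membrane repeatedly and gather other proteins, such as integrins, immunoglobulin-like partners and membrane proteases, into patches called tetraspanin-enriched microdomains. CD9, CD63 and CD81 are also carried on extracellular vesicles and serve as their usual markers. Prominins are unrelated pentaspan glycoproteins that bind cholesterol and sit on microvilli and other protrusions of the membrane. PROM1, also called CD133, is widely used as a marker of stem and cancer stem cells, whereas PROM2 is its relative in epithelia.

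Ly6a was examined first, since it checks the sort. In normalized counts, that is counts divided by 1 size factor per library, it ran from 145 to 193 with Sca1 selected and from 0 to 4.11 in the other fraction. Total counts ran from 13561804 to 16968215 per library, and 8 of 9 epithelial markers exceeded 10 counts, with Krt5 as the exception. Most leukocyte markers (14 of 18) never exceeded 10 counts or were not in the table, and Ptprc, which encodes CD45, reached at most 4 counts. The summed level of the leukocyte list was nonetheless higher in 4T1-Sca1+ cells (14.1 to 15.4 against 6.01 to 8.45 CPM, counts scaled to equal library totals), carried mainly by Cd74, Csf1r and S100a8. The summed fibroblast markers were 42.0 to 44.5 against 26.0 to 30.6 CPM, most of it Pdgfra (560 against 364 mean normalized counts). Col1a1 (47.6 against 28.6), Dcn (11.4 against 1.06) and Pdgfrb (6.19 against 0.257) were also higher. Postn (24.7 against 24.2) and Col1a2 (4.43 against 4.61) were nearly level, and Fap was lower (0.958 against 2.96). Of the 10 fibroblast markers, 5 were at or below 10 counts or not in the table. The endothelial list was at 2.30 to 2.89 against 2.85 to 4.34, with 6 of 8 markers at or below 10 counts or not in the table. The part of such cells in the values below was not tested, and in bulk libraries fewer cells with a transcript and less transcript per cell cannot be told apart.

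Of the 10 genes, 8 passed the filter on low counts and 2, Tspan8 and Prom1, did not. Tspan1 and Prom2 were several times higher in 4T1-Sca1+ cells, Cd81 and Cd151 were moderately higher, Cd9 was slightly higher and Cd63 was lower. For Cd82 and Tspan13 the groups overlapped. Counted only as a description, 5 of the 8 were higher and 1 was lower at an adjusted p under 0.05 (edgeR), where 31.3% of all 11717 genes tested were higher and 30.2% were lower. A change of at least 2-fold upward was found for 2 of the 8, against 5.22% of all genes tested, and one downward for 0 against 0.879%. Libraries of the 2 groups were fully apart for 6 of the 8 (54.7% of all genes tested), with 5 higher (26.8%) and 1 lower (27.9%). The median log2 fold change of the 8 genes was 0.30, and that of all genes tested was 0.00738. Since the comparison was known when the genes were chosen, nothing is read from these shares.

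**Figure D1:**
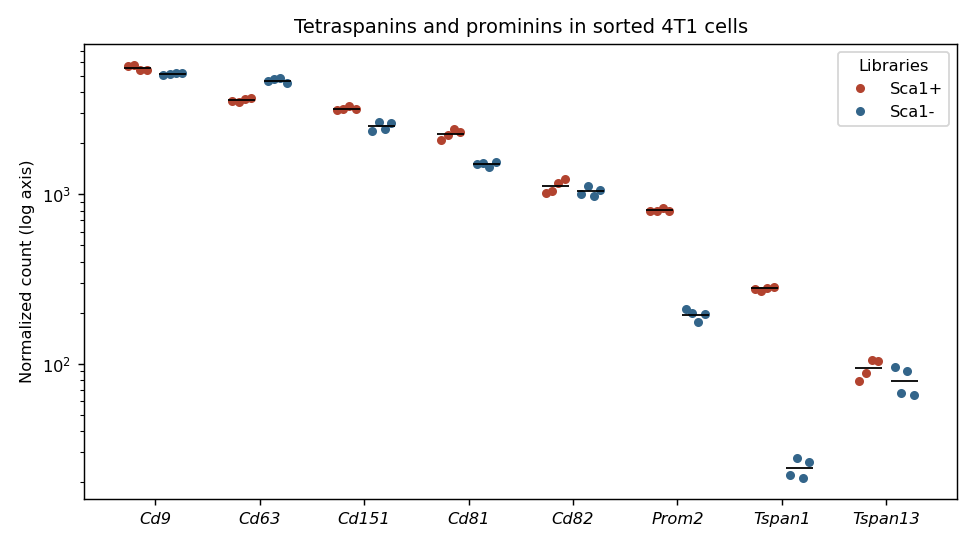
Normalized counts (log axis) of the 8 genes that passed the filter, with 1 point per library and a black line at the mean of 4; red points are Sca1+ and blue points Sca1- libraries. Tspan1 (269 to 285 against 21.1 to 27.7) and Prom2 (790 to 830 against 175 to 209) stand widely apart, Cd63 is lower in the Sca1+ libraries, and the points of Cd82 and Tspan13 overlap.

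Tspan1 is an epithelial tetraspanin found at the cell surface and in endosomes and lysosomes. Tspan1 (ENSMUSG00000028699; GRCm38 chromosome 4, 116161869 to 116167601, minus strand) had 276, 269, 281 and 285 normalized counts in 4T1-Sca1+ replicates 1 to 4 and 22.0, 27.7, 21.1 and 26.3 in 4T1-Sca1- replicates 1 to 4. Every 4T1-Sca1+ library was far above every 4T1-Sca1- library, and the log2 fold change was 3.53 ± 0.11 (standard error), or 11.5-fold. Among all genes tested, 24 had a log2 fold change at least as high, Tspan1 included. It kept a log2 fold change between 3.46 and 3.59 under the alternative fits.

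Prom2 gave the second largest difference. Prom2 (ENSMUSG00000027376; chromosome 2, 127526473 to 127541467, minus strand) had 794, 790, 830 and 796 normalized counts in 4T1-Sca1+ replicates 1 to 4 and 209, 198, 175 and 195 in 4T1-Sca1- replicates 1 to 4. The groups lay far apart, with a spread within groups of 2.30% and 7.38% of the mean. The log2 fold change was 2.05 ± 0.07, or 4.15-fold, and 156 genes tested had one at least as high.

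Prom1 showed that the better known prominin was all but undetected in either fraction. Prom1 (ENSMUSG00000029086; chromosome 5, 43993620 to 44102032) had 0 counts in all 4 4T1-Sca1+ libraries and 1 count in total over the 4T1-Sca1- libraries, in replicate 3. A count of 0 allows up to 3 counts, and a difference could not be detected at such a depth. The prominin transcript of these cells was thus Prom2, with 3411 counts in the 4T1-Sca1+ and 740 in the 4T1-Sca1- libraries. Tspan8, another epithelial tetraspanin that marks vesicles of several carcinomas, was also near 0. Tspan8 (ENSMUSG00000034127; chromosome 10, 115816832 to 115849893) had 3, 3, 0 and 3 counts in 4T1-Sca1+ replicates 1 to 4 and 1, 0, 0 and 0 in 4T1-Sca1- replicates 1 to 4, and no fold is given at such counts.

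Tspan13 was expressed at a low level, and its groups overlapped. Tspan13 (ENSMUSG00000020577; chromosome 12, 36014557 to 36042500) had 79.5, 87.8, 105 and 104 normalized counts in 4T1-Sca1+ replicates 1 to 4 and 95.5, 66.7, 90.2 and 65.1 in 4T1-Sca1- replicates 1 to 4. The log2 fold change of 0.25 ± 0.14 was not called, and only with offsets corrected for transcript GC content did it pass, at 0.32 and an adjusted p of 0.047 (edgeR).

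The vesicle tetraspanins did not move together, since Cd81 was higher, Cd9 nearly level and Cd63 lower in 4T1-Sca1+ cells. Cd81, which encodes a partner of the immunoglobulin-like protein IGSF8, had 2077.5, 2221.7, 2413.8 and 2317.5 normalized counts in 4T1-Sca1+ replicates 1 to 4 and 1511.8, 1533.9, 1444.9 and 1538.7 in 4T1-Sca1- replicates 1 to 4 (ENSMUSG00000037706; chromosome 7, 143052739 to 143067934). The groups were apart, with a log2 fold change of 0.60 ± 0.05. The counted gene R74862 overlaps Cd81 on the opposite strand, but it had only 155 counts over the 8 libraries.

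Cd63, whose protein is found mainly in late endosomes and lysosomes, was the only one of the 8 that was lower. Cd63 (ENSMUSG00000025351; chromosome 10, 128900989 to 128912822) had 3522.5, 3510.6, 3653.6 and 3682.7 normalized counts in 4T1-Sca1+ replicates 1 to 4 and 4630.8, 4740.4, 4805.5 and 4507.6 in 4T1-Sca1- replicates 1 to 4. Its groups did not overlap, and its log2 fold change was -0.37 ± 0.04, or 1.29-fold lower. With GC-corrected offsets it was -0.54. Within each library, the level of Cd81 per length was 0.754 to 0.845 of that of Cd63 in 4T1-Sca1+ cells and 0.385 to 0.437 in 4T1-Sca1- cells.

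Cd9 was the most abundant of the 10. Cd9 (ENSMUSG00000030342; chromosome 6, 125460266 to 125494791) had 5681.3, 5798.4, 5425.0 and 5364.8 normalized counts in 4T1-Sca1+ replicates 1 to 4 and 5073.0, 5096.6, 5146.1 and 5195.8 in 4T1-Sca1- replicates 1 to 4. The groups did not overlap but came close, and the log2 fold change was 0.13 ± 0.04, or 1.10-fold. Its adjusted p was 0.0116 (edgeR), so it was not called at an adjusted p under 0.01. It also lost its call without 4T1-Sca1+ replicate 2, with a log2 fold change of 0.11 (adjusted p = 0.0516, edgeR).

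CD151 and CD82 are the members best known for adhesion and motility. CD151 binds laminin-binding integrins, and CD82 has been described as a suppressor of metastasis. Cd151 (ENSMUSG00000025510; chromosome 7, 141467392 to 141471473) had 3142.3, 3161.5, 3293.5 and 3172.5 normalized counts in 4T1-Sca1+ replicates 1 to 4 and 2348.4, 2661.2, 2413.3 and 2626.5 in 4T1-Sca1- replicates 1 to 4, a log2 fold change of 0.36 ± 0.05 with no overlap. Cd82 (ENSMUSG00000027215; chromosome 2, 93419111 to 93463140) had 1009.0, 1042.3, 1170.0 and 1220.0 against 1003.7, 1113.0, 975 and 1059.3 in the same order. Its groups overlapped, and its log2 fold change of 0.11 ± 0.06 was called only when libraries were scaled by their totals alone, at 0.15 and an adjusted p of 0.0429 (edgeR). With GC-corrected offsets Cd82 was at 0.01 and Cd151 at 0.28.

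The regions upstream of 4 of these genes are shown because Tspan1 and Prom2 had the largest differences and Cd81 and Cd63 went in opposite directions. Each is the 250 bases before the RefSeq start site on GRCm38.p6, written 5′ to 3′ on the strand of the gene. Tspan1 is at chr4:116167599-116167848 (minus strand), Prom2 at chr2:127541418-127541667 (minus), Cd81 at chr7:143052500-143052749 (plus) and Cd63 at chr10:128909095-128909344 (plus). The Cd63 start site lies 8356 bases inside the gene's GENCODE limits. Capitals mark matches to 6 motifs searched on both strands, namely AP-1 (TGANTCA), STAT (TTCNNNGAA), TEAD (GGAATG), ARE, the antioxidant response element (TGACNNNGC), GC box (GGGCGG) and TATA box (TATAAA).
Tspan1: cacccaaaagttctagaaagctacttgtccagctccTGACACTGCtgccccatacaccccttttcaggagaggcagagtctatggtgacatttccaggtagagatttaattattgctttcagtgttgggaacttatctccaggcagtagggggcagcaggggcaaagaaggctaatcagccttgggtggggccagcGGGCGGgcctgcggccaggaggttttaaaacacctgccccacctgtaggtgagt
Prom2: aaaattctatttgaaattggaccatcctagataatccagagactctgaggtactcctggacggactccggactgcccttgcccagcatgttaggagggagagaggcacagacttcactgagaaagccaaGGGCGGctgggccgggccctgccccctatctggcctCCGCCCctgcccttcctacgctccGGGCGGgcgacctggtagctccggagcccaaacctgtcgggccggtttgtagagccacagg
Cd81: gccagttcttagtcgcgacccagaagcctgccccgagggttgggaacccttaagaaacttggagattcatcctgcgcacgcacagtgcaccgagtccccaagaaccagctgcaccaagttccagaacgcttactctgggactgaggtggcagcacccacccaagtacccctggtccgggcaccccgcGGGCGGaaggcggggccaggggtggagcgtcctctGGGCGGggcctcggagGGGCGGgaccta
Cd63: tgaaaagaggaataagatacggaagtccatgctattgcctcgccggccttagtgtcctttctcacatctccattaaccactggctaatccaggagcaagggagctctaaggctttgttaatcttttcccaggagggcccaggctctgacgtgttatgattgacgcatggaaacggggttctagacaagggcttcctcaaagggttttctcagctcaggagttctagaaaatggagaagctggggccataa
The capitals in Tspan1 are an ARE match that begins 214 bases before the start site and a GC box, and those in Prom2 and Cd81 are 3 GC boxes each. No letters of Cd63 matched. Over the windows of all 10 genes, a GC box was found in 8, an ARE match in 1 (Tspan1), an AP-1 match in 1 (Prom1), a TEAD match in 1 (Cd82), and a STAT or TATA box match in 0. Some of these motifs can share letters, such as AP-1 and ARE, but no 2 matches overlapped here. Among 11740 windows of tested genes, 59.0% held a GC box, 11.8% an ARE match, 4.58% an AP-1 match, 10.7% a TEAD match, 5.83% a STAT match and 6.27% a TATA box. Over all 32851 windows the shares were 32.7%, 10.2%, 6.75%, 12.6%, 7.02% and 12.4%. A match is a description of letters and not a bound site.

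To place these genes in their family, the other 23 tetraspanins of the mouse were taken by name from the same fit. Of these, 21 were in the count table (Tspan6 and Upk1b were not analysed here) and 15 passed the filter. At an adjusted p under 0.05 (edgeR, adjusted over all genes tested), 7 rose and 3 fell in 4T1-Sca1+ cells, and 5 were not called. Their median log2 fold change was 0.24. Of all genes tested, 61.5% were called, 31.3% higher and 30.2% lower.

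Tspan11 rose most. It had 87.7, 74.9, 78.8 and 70.0 normalized counts in 4T1-Sca1+ replicates 1 to 4 and 16.2, 15.4, 13.4 and 12.6 in 4T1-Sca1- replicates 1 to 4. The groups were far apart, a log2 fold change of 2.43 ± 0.17 at an adjusted p of 2.04e-09 (edgeR). Tspan12, which encodes a co-receptor of FZD4 in norrin signaling, fell most, with 88.7, 105, 85.8 and 121 against 193, 187, 206 and 166 normalized counts, a log2 fold change of -0.89 ± 0.11 (adjusted p = 2.83e-06, edgeR). Tspan11 was in the study's positive and Tspan12 in its negative SCA1 signature, so neither is independent evidence.

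The TspanC8 proteins are the tetraspanins that bind the protease ADAM10 and carry it to the cell surface. Of its 6 genes, 5 passed the filter and 3 rose, where 31.3% of all genes tested rose and 61.5% were called. With 5 genes, nothing is read from this count. Those that rose were Tspan17 (log2 fold change 0.77 ± 0.12), Tspan15 (0.67 ± 0.14) and Tspan5 (0.27 ± 0.06). Their adjusted p-values were 3.92e-05, 0.00044 and 0.00131 (edgeR). Tspan14, the most abundant TspanC8 gene, had a log2 fold change of -0.08 ± 0.05 and was not called. Tspan33 (0.18 ± 0.32) was not called either, and Tspan10 had 1 count in all. Adam10 itself averaged 1762.9 ± 155 normalized counts in 4T1-Sca1+ and 1765.1 ± 152 in 4T1-Sca1- libraries (SD, n = 4). A log2 fold change of 0.01 ± 0.07 was not called (adjusted p = 0.901, edgeR), although with GC-corrected offsets it was 0.12 and passed.

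Other tetraspanins that rose were Tspan9 (0.46 ± 0.05), Rom1 (0.47 ± 0.09), which is known from photoreceptors, and Tspan3 (0.12 ± 0.04). Tspan2 (-0.51 ± 0.11) and Tspan31 (-0.13 ± 0.05) fell. The calls of Tspan3 and Tspan31 were weak, with adjusted p-values of 0.0219 and 0.0222 (edgeR). Each was lost without 4T1-Sca1+ replicate 1, 4T1-Sca1- replicate 3 or 4T1-Sca1- replicate 4, where the log2 fold changes were 0.10 to 0.12 for Tspan3 and -0.12 to -0.11 for Tspan31. The call of Tspan3 was also lost with no low-count filter (0.11, adjusted p = 0.0745, edgeR). That of Tspan31 was also lost with library totals alone (-0.087, adjusted p = 0.121) and with upper-quartile scaling (-0.10, adjusted p = 0.0703). Tspan31 overlaps Cdk4 on the opposite strand, which had 72858 counts and was itself lower (8509.2 against 9690.8 normalized counts), and the use of strand in counting is not given, so its value is uncertain. Tspan4 (0.09 ± 0.05) was not called. It overlaps Chid1 on the opposite strand, but Chid1 had only 2586 counts in all. Tspan4 had 12126 counts over the 4T1-Sca1+ and 10292 over the 4T1-Sca1- libraries. Tspan7 (0.72 ± 0.32) and Upk1a (0.24 ± 0.32) were not called either, at adjusted p-values of 0.0616 and 0.532 (edgeR). Tspan7 had 57 counts in total over the 4T1-Sca1+ and 31 over the 4T1-Sca1- libraries. It passed the filter through the group where it was high, so its value is a description only. The leukocyte tetraspanins Cd37 and Cd53 had at most 2 and 7 counts in any library, with totals of 3 against 1 and 21 against 3 counts.

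**Figure D2:**
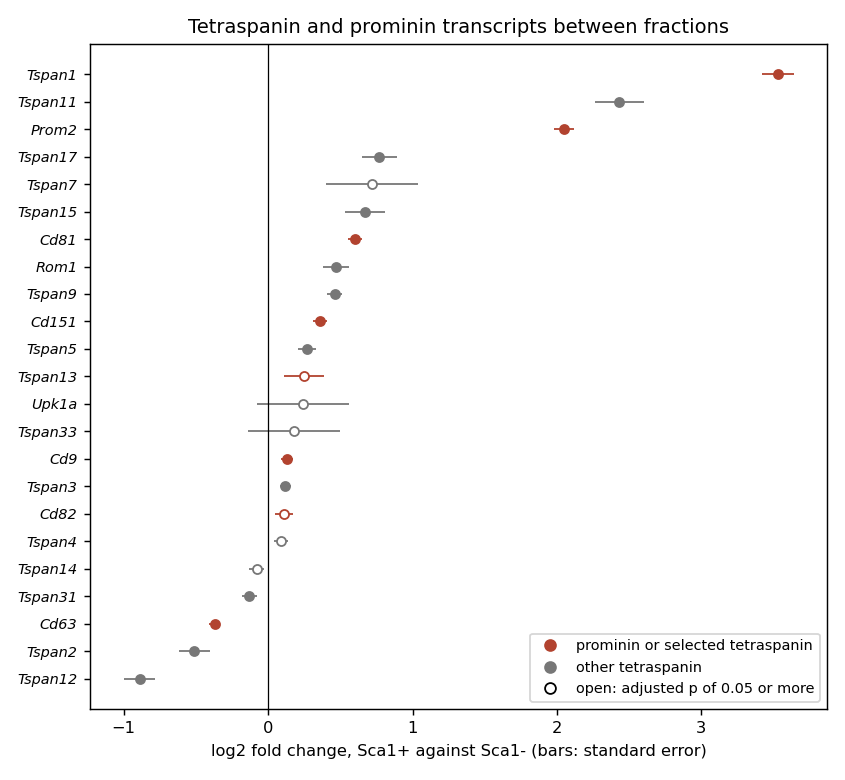
Log2 fold change of 4T1-Sca1+ against 4T1-Sca1- cells (x axis, bars are standard errors) for the 22 tetraspanins and Prom2 that passed the filter; red marks the genes selected with the results known, grey the other tetraspanins, and open symbols an adjusted p of 0.05 or more. Tspan1 (3.53), Tspan11 (2.43) and Prom2 (2.05) lie apart from the rest, which run from -0.89 (Tspan12) to 0.77 (Tspan17).

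Some tetraspanin genes are neighbours in the genome. Tspan9 and Tspan11 lie on opposite strands of chromosome 6, 7.42 kb apart with no coding gene between, and both rose, by log2 fold changes of 0.46 and 2.43. Cd151 and Tspan4 lie 3.77 kb apart on chromosome 7 with 1 coding gene between, with log2 fold changes of 0.36 and 0.09. Cd81 is 33.1 kb from Tspan32, which had 5 counts in 4T1-Sca1+ and 3 in 4T1-Sca1- cells. Cd82 is 84.6 kb from Tspan18, which had 6 and 4 counts.

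Levels of different genes were compared per length, as CPM per kilobase of exon. On this scale Cd9 was at 180 ± 6.90 in 4T1-Sca1+ and 164 ± 1.94 in 4T1-Sca1- cells (SD, n = 4), above every other tetraspanin. In 4T1-Sca1+ cells the next were Tspan4 (86.8 ± 6.83), Cd151 (77.0 ± 1.44), Cd63 (64.5 ± 1.51), Tspan31 (57.4 ± 2.45) and Cd81 (51.8 ± 3.17). The libraries of the neighbours Tspan4 and Cd151 did not overlap but came within 1 unit (79.7 and 79.1), and those of Tspan31 (from 54.4) and Cd81 (to 55.2) overlapped. In 4T1-Sca1- cells Cd63 (83.1 ± 2.33) and Tspan4 (81.5 ± 1.94) overlapped, followed by Tspan31 (62.9 ± 1.94) and Cd151 (60.1 ± 3.62), which overlapped as well, and then Cd81 (34.3 ± 0.934). Despite their large differences, Tspan1 (7.89 ± 0.193 against 0.683 ± 0.0891) and Prom2 (10.2 ± 0.208 against 2.45 ± 0.179) were far below these. Cd82 was at 24.4 ± 2.19 against 22.6 ± 1.29 and Tspan13 at 2.51 ± 0.329 against 2.10 ± 0.419.

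The summed level of the 29 tetraspanins in the table ran from 652 to 675 CPM per kilobase in 4T1-Sca1+ and from 599 to 616 in 4T1-Sca1- cells. Cd9, Cd63, Cd81 and Cd151 together held 56.4% ± 0.667 and 56.3% ± 0.237 of it (SD, n = 4). Of the summed level of all 29, the share of Cd63 was 9.74% in 4T1-Sca1+ and 13.7% in 4T1-Sca1- cells. That of Cd81 was 7.82% and 5.65%, and that of Tspan1 was 1.19% and 0.112%. These levels rest on the union of all exons. For the 10 genes, the length of the longest transcript raised the levels by 1.08 to 1.79 times. With it Cd81 (92.9) stood above Cd63 (82.1) in 4T1-Sca1+ cells. The levels of the other tetraspanins, the sum and the shares were not computed with that length.

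**Figure D3:**
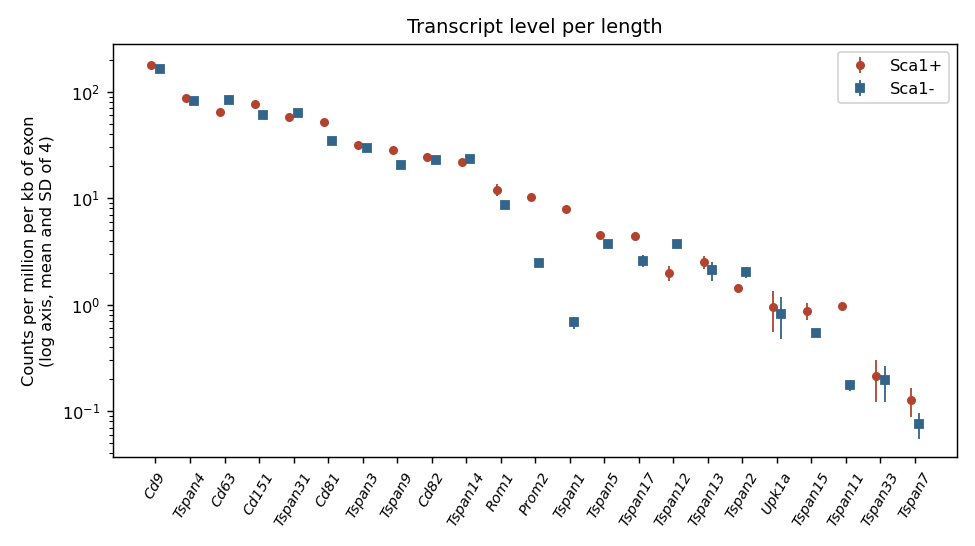
Transcript level per length (CPM per kb of exon, log axis; mean and SD of 4 libraries) of each tetraspanin and prominin that passed the filter, ordered by level, with red circles for Sca1+ and blue squares for Sca1- libraries. Cd9 leads at 180 and 164, while Tspan1 (7.89 and 0.683) and Prom2 (10.2 and 2.45) sit lower in the order.

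The proteins that tetraspanins hold in the membrane were asked about next. Of 21 genes listed for such partners, 18 passed the filter, 4 rose, 7 fell and 7 were not called, with a median log2 fold change of -0.072. The 11 called of 18 are close to the share of 61.5% over all genes tested (31.3% higher and 30.2% lower). Those that rose included both immunoglobulin-like partners of CD9 and CD81. Igsf8 rose by 0.54 ± 0.07 (adjusted p = 6.61e-06, edgeR) and Ptgfrn by 0.30 ± 0.04, alongside Ifitm3 (0.71 ± 0.05), an antiviral membrane protein. With GC-corrected offsets Igsf8 was at 0.35. Of the integrin alpha subunits listed, only Itga6, one that binds laminin and pairs with CD151, rose (0.22 ± 0.05). Itga7 was not called (0.12 ± 0.06, adjusted p = 0.101, edgeR), and neither was Itga3. Of the 2 beta subunits listed, Itgb1 fell, with a log2 fold change of -0.28 ± 0.05. Itgb4 was not called (-0.12 ± 0.06, adjusted p = 0.108, edgeR). Itga3 was the most abundant of the partners, with 49839.0 ± 3021.5 against 49395.5 ± 2571.5 normalized counts (SD, n = 4). Its log2 fold change was 0.03 ± 0.05 and was not called, although GC-corrected offsets gave -0.14 with an adjusted p of 0.000286 (edgeR). The genes that fell most were Hbegf (-0.53 ± 0.05), which encodes a growth factor precursor bound by CD9, Cd44 (-0.52 ± 0.05), the hyaluronan receptor, and Egfr (-0.52 ± 0.10).

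Because CD9, CD63 and CD81 ride on extracellular vesicles, 29 genes of vesicle formation and release were listed, of which 26 passed the filter. Among them 5 rose, 10 fell and 11 were not called, with a median log2 fold change of -0.051. The 15 called of 26 are again close to the 61.5% of all genes tested. Smpd3, the neutral sphingomyelinase that makes ceramide, rose most (2.16 ± 0.30). Its level was low, with 26.1 ± 3.89 against 5.84 ± 2.88 normalized counts (SD, n = 4). Smpd3 had 111 counts in total over the 4T1-Sca1+ and only 22 over the 4T1-Sca1- libraries. It thus passed the filter through the group where it was high, and its value is a description only. Flot1, which encodes a membrane scaffold protein, rose by 1.27 ± 0.08 and Sdc1, a cell surface proteoglycan, by 0.40 ± 0.04. Sdcbp2, which encodes syntenin-2, fell most (-2.12 ± 0.08, adjusted p = 2.16e-13, edgeR), and the study had picked it from these libraries for its negative signature. Sdcbp, which encodes syntenin-1, an adaptor that binds CD63, fell far less (-0.24 ± 0.05). Chmp4c (-0.70 ± 0.08), an ESCRT-III subunit, and Stam (-0.25 ± 0.05), an ESCRT-0 subunit, also fell. With GC-corrected offsets Sdcbp and Stam were each at -0.13.

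For the prominins, 13 genes of microvilli were listed, of which 9 passed the filter. Of these 6 rose, 2 fell and 1 was not called, and the median log2 fold change was 0.32, where 31.3% of all genes tested rose and 30.2% fell. Myo1a (0.77 ± 0.29), Espn (0.58 ± 0.10) and Slc9a3r2 (0.56 ± 0.09), which encode a brush border myosin, an actin bundler and a scaffold protein, rose most. Myo1a had only 17.5 ± 3.57 against 10.1 ± 3.60 normalized counts (SD, n = 4), with totals of 74 against 39 counts. It thus passed the filter through the group where it was high, and its value is a description only. With at least 10 counts required in every library, Myo1a was not tested and 5 genes of the list rose. Its call was lost without 4T1-Sca1+ replicate 1 or 3 or 4T1-Sca1- replicate 2 or 4, with a log2 fold change down to 0.59. It was also lost with DESeq2 (0.78, adjusted p = 0.0669). With GC-corrected offsets Espn was at 0.28 and Slc9a3r2 at 0.29. Of the 3 genes for ERM proteins, which link the membrane to actin, Msn fell by 0.82 ± 0.04 and Ezr by 0.33 ± 0.04 on the log2 scale, whereas Rdx was not called (-0.05 ± 0.05, adjusted p = 0.404, edgeR). The study had picked Msn for its negative signature. Villin (Vil1) and the brush border protocadherin Cdhr2 were near 0 in both groups. Of the 5 genes of the L6 family, proteins once classed with the tetraspanins, only Tm4sf1 passed the filter, and it fell (-0.32 ± 0.05, adjusted p = 1.41e-05, edgeR).

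**Figure D4:**
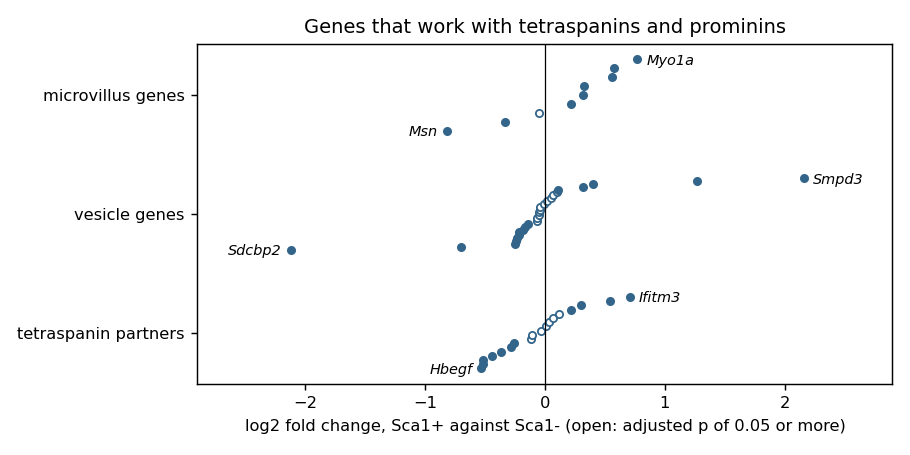
Log2 fold change of 4T1-Sca1+ against 4T1-Sca1- cells for each tested gene of the lists of tetraspanin partners (18), vesicle genes (26) and microvillus genes (9), with open circles for an adjusted p of 0.05 or more and the gene at each end named. Values run from -0.53 (Hbegf) to 0.71 (Ifitm3), from -2.12 (Sdcbp2) to 2.16 (Smpd3) and from -0.82 (Msn) to 0.77 (Myo1a).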

How the data were processed

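RNA libraries were prepared with a TruSeq v2 kit for a NextSeq instrument, per the labels. The submitters' processing notes name cutadapt 1.16, STAR 2.5.3a and the builds GRCm38 and mm10, whereas the counting tool, annotation and use of strand are not given in the sources used here. The authors deposited raw counts for 16341 Ensembl genes and a table of normalized signal for 15372 of them, which equals the counts divided by DESeq2 size factors (relative difference at most 4.96e-15). Symbols, positions and lengths came from GENCODE M21 on GRCm38 (16200 identifiers matched, 141 not), and promoter windows from RefSeq, of which all 10 genes had one.

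Counts were tested with edgeR 4.0.16 in R 4.3.3 (filterByExpr, TMM, quasi-likelihood test, two-sided, no covariate) on 4 against 4 libraries. Benjamini-Hochberg adjustment ran over 11717 genes, and a standard error is the absolute log2 fold change divided by the square root of F. The test used by the study is not given in the sources used here. Normalized counts are counts over size factors. Counts carry no molecular identifiers, so depth (13561804 to 16968215 counts per library) limits counting error only. The genes and lists were chosen with earlier results of these data known. Named genes were the 10 genes, every other tetraspanin tested, the 3 called genes highest and the 3 lowest of each further list, and Ly6a, Adam10, Itga3, Itga6, Itgb1, Igsf8, Ptgfrn and Sdcbp. Igsf8 and Ptgfrn came under both parts of the rule. Itga7, Itgb4, Rdx, Vil1 and Cdhr2 were named in addition to it. Alternatives were other scalings, filters, thresholds and tests (DESeq2 1.42.0, limma 3.58.1 on voom values and on log2(value + 1) of the deposited signal), GC-corrected offsets, a replicate block, leaving out each library, and transcript length.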

Additional observations from a re-analysis of the deposited data

Results flagged for a closer look

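In 46 group tests over the tested tetraspanins and Prom2, 3 libraries lay far from the other 3 of their group, where chance flags about 1 in 20, or 2.3. Prom2 had 830 normalized counts in the 4T1-Sca1+ library of replicate 3, where the others lay at 790 to 796. Tspan14 had 828 in the same library, and the others 888 to 898. Upk1a had 32.9 in 4T1-Sca1+ replicate 1 and 15.8 to 16.6 elsewhere in that group.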

How the results depend on the processing

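The counts of called genes among all genes, the 10 genes and each list stayed within 1.5 times under the other scalings, filters, tests, GC-corrected offsets, an adjusted p under 0.01 and without each library. A minimum log2 fold change of 1 in either direction moved them by its construction, to 612 higher and 103 lower of all genes, 2 and 0 of the 10 genes, 1 and 0 of the other tetraspanins, 0 and 0 of the partners, 2 and 1 of the vesicle genes, 0 and 0 of the microvillus genes and 0 lower of the L6 family.

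Libraries with the same replicate number did not deviate together (correlations 0.123, -0.195, -0.0512 and 0.00186). These values cannot tell whether same-numbered libraries came from a common sort or culture, since a small shared effect could be lost in other spread. With the replicate number as a block, 3605 genes were higher and 3452 lower, with 5 and 1 of the 10 genes, 7 and 3 of the other tetraspanins and 4 and 10 of the vesicle genes.

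Sign changes fell on genes that were not called. Adam10 was at -0.0023 with DESeq2 size factors, -0.0026 without a low-count filter and -0.0021 on the deposited normalized table, and ran from -0.038 to 0.061 without each library. Itga3 was at -0.14 with GC-corrected offsets, past the threshold, and from -0.02 to 0.054 without each library. Tspan4 was at -0.085 with GC-corrected offsets and was called with library totals alone and without 4T1-Sca1+ replicate 4. Tspan33 ran from -0.14 to 0.42 and Upk1a from -0.1 to 0.44 without each library. Tspan7 was called in 4 alternatives. The cause was not tested. Depth limits Prom1, Tspan8 and the other genes under the filter.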
